A study of Homo sapiens with 18 samples.

Results

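The 9 genes described here, PDX1, NKX6-1, NKX2-2, MAFA, PAX6, NEUROD1, ISL1, RFX6 and INSM1, encode transcription factors of pancreatic beta cells. They were taken by name from a table of 57808 genes and followed through all 18 libraries, and each name matched 1 row of the table. The 9 were not chosen by a rule on their measured values, though earlier results of these data were known.

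Beta cells arise from pancreatic progenitors through a short endocrine progenitor state, and each step is driven by transcription factors that act on one another and then on the insulin gene and the genes of the secretory machinery. PDX1, NKX6-1 and NKX2-2 are homeodomain proteins already present in progenitors. NEUROD1, a basic helix-loop-helix protein, INSM1, a zinc finger protein, and RFX6, a winged helix protein, act in newly formed endocrine cells. PAX6, with a paired domain and a homeodomain, and ISL1, a LIM homeodomain protein, are found in all islet cell types, and MAFA, a basic leucine zipper protein, activates the insulin gene late, in maturing beta cells.

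RNA sequencing and ribosome footprint sequencing were carried out on MEL1, an established human embryonic stem cell line in which 1 insulin allele drives GFP. All groups share this reporter. RNA was measured in undifferentiated cells (hPSC) and definitive endoderm (DE, the germ layer that gives rise to gut and pancreas), both of RPL22-FLAG genotype, and in stem-cell-derived beta-like cells (sBC) sorted as GFP+ or GFP-, for which the labels name no FLAG tag. Footprints are the pieces of mRNA that ribosomes protect from RNase. They were sequenced from all ribosomes (Ribo) in hPSC and DE of the same genotype, and after pull-down of FLAG-tagged RPL22, a ribosomal protein (IP-Ribo), in hPSC, DE and GFP+ sBC, the last with RPL22-FLAG delivered by lentivirus. Each of the 9 groups held 2 libraries. The labels do not say that these came from separate cultures, so the p-values below measure only the spread between libraries, which may be technical.

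The stretches of 250 bases just upstream of the first listed start of 5 members are printed here because these genes went together from little RNA in hPSC to high RNA in sBC. They come from RefSeq (GRCh38.p14), which had an entry for 5 of the 9 members in the table used. PDX1, MAFA, RFX6 and INSM1 had none. Each runs 5′ to 3′ on the strand of its gene and ends at the base before the start. Capitals mark E-boxes (CANNTG, the motif of helix-loop-helix proteins such as NEUROD1) and the homeodomain core (TAAT, or ATTA on the other strand).
NEUROD1 (chr2:181680518-181680767, minus strand): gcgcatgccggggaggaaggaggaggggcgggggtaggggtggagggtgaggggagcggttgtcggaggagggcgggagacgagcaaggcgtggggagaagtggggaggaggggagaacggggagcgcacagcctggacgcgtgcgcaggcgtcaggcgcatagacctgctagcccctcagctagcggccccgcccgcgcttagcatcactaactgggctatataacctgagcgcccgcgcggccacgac
NKX6-1 (chr4:84499293-84499542, minus strand): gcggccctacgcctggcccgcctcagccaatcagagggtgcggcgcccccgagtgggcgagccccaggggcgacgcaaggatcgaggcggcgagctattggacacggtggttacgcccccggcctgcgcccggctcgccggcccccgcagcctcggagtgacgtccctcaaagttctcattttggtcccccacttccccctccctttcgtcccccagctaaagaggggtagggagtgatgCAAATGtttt
NKX2-2 (chr20:21522690-21522939, minus strand): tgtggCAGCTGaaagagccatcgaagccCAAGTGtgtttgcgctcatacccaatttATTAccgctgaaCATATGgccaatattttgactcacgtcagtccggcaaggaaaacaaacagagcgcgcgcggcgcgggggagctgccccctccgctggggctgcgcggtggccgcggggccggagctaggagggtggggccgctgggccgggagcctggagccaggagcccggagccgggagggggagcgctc
PAX6 (chr11:31817962-31818211, minus strand): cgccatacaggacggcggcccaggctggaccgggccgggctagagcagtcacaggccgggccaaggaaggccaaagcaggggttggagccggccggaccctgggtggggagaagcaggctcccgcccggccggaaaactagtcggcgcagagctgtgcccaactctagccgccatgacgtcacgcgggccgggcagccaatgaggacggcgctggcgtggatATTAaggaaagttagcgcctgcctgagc
ISL1 (chr5:51383198-51383447, plus strand): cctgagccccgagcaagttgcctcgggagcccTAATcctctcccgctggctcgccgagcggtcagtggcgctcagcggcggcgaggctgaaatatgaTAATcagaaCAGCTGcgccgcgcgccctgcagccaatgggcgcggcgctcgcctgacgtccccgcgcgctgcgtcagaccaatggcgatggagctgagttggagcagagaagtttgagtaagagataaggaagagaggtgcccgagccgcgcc
Of 35116 promoters of this length in the same table, 61.8% held an E-box and 47.4% the homeodomain core. The NEUROD1 stretch held neither. NKX6-1 had 1 E-box, NKX2-2 had 3 and 1 homeodomain core, PAX6 had 1 homeodomain core, and ISL1 had 1 E-box and 2 cores. The 5 stretches were rich in CpG, with 22 to 27 CpG each where the median promoter had 11. A match is a description of the letters, and binding was not measured. PAX6 has 9 starts in the table and NKX2-2 has 2, and the files do not say which were used. The stretch upstream of the second NKX2-2 start held neither motif.

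The genes lie, on GRCh38.p14, at chr13:27920000-27926313 (PDX1), chr4:84491985-84499292 (NKX6-1), chr20:21511017-21522689 (NKX2-2), chr11:31789026-31817961 (PAX6), chr2:181668295-181680517 (NEUROD1), chr5:51383448-51394730 (ISL1), chr6:116877242-116932161 (RFX6) and chr20:20368104-20370949 (INSM1).

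Library depth ran from 6.61 to 92.53 M estimated counts, and was lowest in the IP-Ribo libraries of DE replicate 1 and GFP+ sBC. Marker lists followed the labels: pluripotency genes summed to 8530 and 9030 CPM (counts scaled to one library size) in hPSC RNA and to 21.3 to 79.2 CPM in sBC RNA, and endoderm genes summed to 25.5 and 27.3 CPM in hPSC and to 4110 and 4380 CPM in DE. Alpha cell genes were present in both sorted fractions and summed to 25200 and 38000 CPM in GFP+ and to 13800 and 20700 CPM in GFP- RNA. RNA of INS, the insulin gene, was also present in both, at 4400 and 4830 CPM in GFP+ and 1700 and 981 CPM in GFP- sBC. The GFP- RNA libraries stood apart from each other, with a Spearman correlation of 0.932 over genes against 0.984 to 0.996 in the other RNA groups, and with 0.42% and 4.35% of counts from mitochondrial genes. In the DE Ribo libraries 40.5% and 76% of counts came from nuclear protein-coding genes. In such bulk samples, fewer cells of a type and less RNA per cell cannot be told apart.

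RNA of 8 of the 9 factors was low or absent in hPSC and at 78.5 to 488 CPM (group means) in sBC, and MAFA alone went the other way. Levels are CPM after TMM scaling (trimmed mean of M values) within an assay. They are compared between groups and not between genes, since transcript lengths were not used here.

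**Figure D1:**
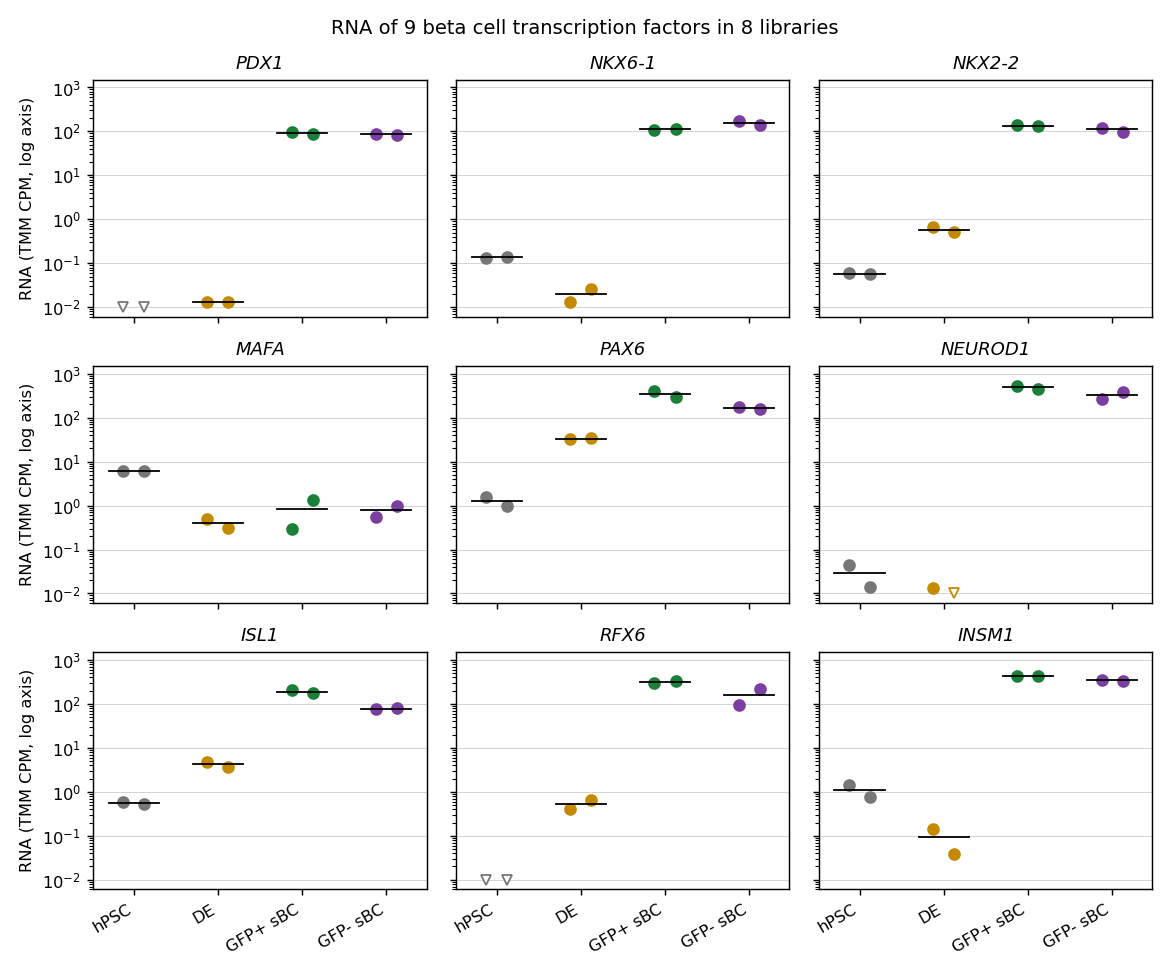
RNA level of each factor in the 8 RNA libraries (TMM CPM, log axis). Points are libraries, black lines are means of 2 libraries where both are above 0, and open triangles mark libraries listed at 0. In 8 panels both sBC groups sit above hPSC and DE, and in the MAFA panel hPSC is highest.

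PDX1, which specifies the pancreas and later activates the insulin gene, had 0 counts in both hPSC libraries and 1 count in each DE library. In GFP+ sBC it stood at 94.8 and 87.9 CPM and in GFP- sBC at 89.6 and 82.7 CPM. The sBC groups thus overlapped each other and lay far above the earlier stages. Against hPSC the GFP+ level was at least 4230-fold higher, a bound that takes 3 counts as the most the hPSC libraries could hide, and edgeR's quasi-likelihood test gave an adjusted p of 5.5e-06.

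NKX6-1, which keeps progenitors on the path to beta cells and represses the alpha cell program, was at 0.132 and 0.141 CPM in hPSC and at 0.0131 and 0.0262 CPM in DE, where 3 counts were seen in all. It reached 107 and 115 CPM in GFP+ and 177 and 141 CPM in GFP- sBC, so the GFP- libraries were the highest of the 8. The log2 fold change of GFP+ sBC over hPSC was 9.64 ± 0.3 (SE, adjusted p = 5.5e-06).

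NKX2-2, which represses alternative islet fates in beta cells, was detected in every RNA library. It rose at each step, from 0.0588 and 0.0563 CPM in hPSC to 0.654 and 0.51 CPM in DE, 140 and 131 CPM in GFP+ and 122 and 99.3 CPM in GFP- sBC. Its log2 fold changes were 3.35 ± 0.41 for DE over hPSC (adjusted p = 2.26e-05) and 7.86 ± 0.27 for GFP+ sBC over DE (adjusted p = 4.33e-06). The low levels of the earlier stages rest on 8 counts in hPSC and 89 in DE.

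NEUROD1, the helix-loop-helix activator of insulin transcription, had 4 counts over both hPSC libraries and 1 over both DE libraries. It stood at 528 and 449 CPM in GFP+ and 262 and 385 CPM in GFP- sBC, with both GFP+ libraries above both GFP- libraries. The GFP+ level was 16900 times that of hPSC (95% counting interval 6610 to 62200), with an adjusted p of 5.82e-06. Counting intervals here cover counting error only.

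INSM1, which helps endocrine progenitors stop dividing and differentiate, had a trough in DE. Its levels were 1.44 and 0.745 CPM in hPSC and 0.144 and 0.0393 CPM in DE, a log2 fold change of -3.5 ± 0.55 (adjusted p = 0.00069). In sBC it stood at 436 and 430 CPM in GFP+ and at 355 and 336 CPM in GFP- libraries. Over hPSC the GFP+ log2 fold change was 8.63 ± 0.48 (adjusted p = 1.24e-05), and over DE it was 12.17 ± 0.58 (adjusted p = 8.6e-06).

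RFX6, needed for islet cell formation, was listed at 0 in hPSC and at 0.405 and 0.667 CPM in DE. The 82 counts in DE make it at least 24.9-fold higher there than in hPSC. It reached 305 and 325 CPM in GFP+ sBC, whereas the GFP- libraries differed between themselves, at 92.6 and 219 CPM. GFP+ sBC were at least 14600-fold above hPSC (adjusted p = 2.43e-05) and had a log2 fold change of 9.19 ± 0.6 over DE (adjusted p = 5.02e-05).

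PAX6, which sustains hormone genes in islet cells, and ISL1, which supports the survival and maturation of islet cells, had their RNA in DE already well above hPSC. PAX6 stood at 1.6 and 0.97 CPM in hPSC, 32.2 and 33.6 CPM in DE, 402 and 288 CPM in GFP+ and 174 and 156 CPM in GFP- sBC. For ISL1 these levels were 0.588 and 0.534, 4.7 and 3.68, 202 and 179, and 76.8 and 80.2 CPM. No group of either gene overlapped another, and the order was hPSC, DE, GFP-, GFP+. DE over hPSC gave log2 fold changes of 4.73 ± 0.17 for PAX6 (adjusted p = 2.45e-07) and 2.95 ± 0.2 for ISL1 (adjusted p = 1.95e-07). GFP+ sBC over DE gave 3.39 ± 0.29 for PAX6 (adjusted p = 6.98e-05), the smallest of the 8 rises over DE, and 5.51 ± 0.23 for ISL1 (adjusted p = 6.39e-06). PAX6 also acts in the eye and brain and ISL1 in the heart and motor neurons. A list of 10 neural genes, given beside this, summed to 306 and 307 CPM in hPSC, 349 and 330 CPM in DE, 352 and 515 CPM in GFP+ and 403 and 346 CPM in GFP- sBC, and its part in the result was not tested.

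MAFA was highest in hPSC, at 6.25 and 6.24 CPM, and low everywhere else. DE stood at 0.484 and 0.314 CPM, GFP+ sBC at 0.287 and 1.36 CPM from 10 and 51 counts, and GFP- sBC at 0.552 and 0.999 CPM. GFP+ sBC overlapped both DE and GFP- sBC, and hPSC lay above all other groups. GFP+ sBC held 0.135 of the hPSC level (counting interval 0.102 to 0.175), a log2 fold change of -2.91 ± 0.66 (adjusted p = 0.00637). Over DE the log2 fold change was 1.05 ± 0.66 (adjusted p = 0.203), and without GFP+ replicate 2 it was -0.45 and without GFP+ replicate 1 it was 1.8 (adjusted p = 0.0288).

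Counted together, 4 of the 6 members tested rose from hPSC to DE (PAX6, ISL1, NKX2-2 and RFX6) and 2 fell (MAFA and INSM1), beside 38.7% of all genes tested that rose and 36.8% that fell. PDX1, NKX6-1 and NEUROD1 had too few counts in this comparison to be tested. From hPSC to GFP+ sBC 8 of 9 rose and MAFA fell, beside 30.4% and 30.9% of all genes, with a member median of 9.64 against 0.04 over all genes. That median is the same with PDX1 and RFX6 set to their bounds. Of the 8, PDX1, NKX6-1 and NEUROD1 passed the filter on low counts only through their sBC libraries, so their part of this count supports nothing about the members. From DE to GFP+ sBC 8 of 9 rose and none fell, beside 29.9% and 30.9%. From hPSC to GFP- sBC 8 rose and MAFA fell by 3.02 ± 0.66 on the log2 scale (adjusted p = 0.00583), beside 31.2% and 28.3%. The limit given for PDX1, NKX6-1 and NEUROD1 holds in the DE to GFP+ and the hPSC to GFP- counts as well. The stage comparisons share the hPSC or the GFP+ libraries.

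In the GFP sort none of the 9 factors passed edgeR's test of GFP+ over GFP- sBC, beside 0.0808% of all genes called higher and 2.35% called lower. At an unadjusted p under 0.05 edgeR called 2, ISL1 and PAX6, both higher, beside 2.15% of all genes higher and 9.93% lower at that level. The libraries of the sort groups did not overlap for 7 members, 6 higher in GFP+ and NKX6-1 lower, beside 23% of all genes higher without overlap and 22.6% lower.

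ISL1 differed by 1.27 ± 0.32 (log2, SE; adjusted p = 0.0977), with 202 and 179 CPM against 76.8 and 80.2 CPM. DESeq2 called it (adjusted p = 0.0151), as did edgeR with no filter on low counts (adjusted p = 0.0399) and when the hPSC and DE RNA libraries joined the fit (1.28, adjusted p = 0.011). In each fit that leaves out 1 library, 1 arm of the sort holds a lone library, which is assumed to vary like the pair in the other arm, and that pair alone supplies the spread. ISL1 was 1.21 and 1.32 without a GFP- library (adjusted p = 0.015 and 0.00358) and 1.18 and 1.36 without a GFP+ library (adjusted p = 0.995 and 0.708).

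PAX6 differed by 1.06 ± 0.33 (adjusted p = 0.191). Its value was 1.11 and 1.0 when GFP- replicate 1 or 2 was dropped (adjusted p = 0.0613 and 0.0244) and 0.8 and 1.28 when GFP+ replicate 1 or 2 was dropped (adjusted p = 1.0 and 0.726). RFX6 differed by 1.0 ± 0.44 (adjusted p = 0.419), and 1 GFP- library set the size: dropping GFP- replicate 1 gave 0.49 (adjusted p = 0.37) and dropping GFP- replicate 2 gave 1.77 (adjusted p = 0.0017), while it was 1.04 and 0.95 without a GFP+ library (adjusted p = 1.0 for both). NEUROD1 differed by 0.59 ± 0.34 (adjusted p = 0.59). Dropping GFP- replicate 1 or 2 gave 0.31 and 0.91 (adjusted p = 0.715 and 0.0225), and dropping GFP+ replicate 1 or 2 gave 0.46 and 0.7 (adjusted p = 1.0 for both).

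INSM1 had a log2 difference of 0.32 ± 0.31 (adjusted p = 0.717), NKX2-2 of 0.28 ± 0.32 (adjusted p = 0.751) and PDX1 of 0.08 ± 0.32 (adjusted p = 0.936). NKX6-1 stood at -0.53 ± 0.32 (adjusted p = 0.611). It was -0.38 and -0.67 with GFP- replicate 1 or 2 dropped (adjusted p = 0.462 and 0.0285) and -0.48 and -0.58 with GFP+ replicate 1 or 2 dropped (adjusted p = 1.0 for both). MAFA, at 0.09 ± 0.81 (adjusted p = 0.972), had no stable sign. These misses do not show equal levels. Leaving out GFP- replicate 2 raised the number of all genes called from 16 higher and 465 lower to 3587 and 4228, so the number of calls in this sort depends on that library.

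**Figure D2:**
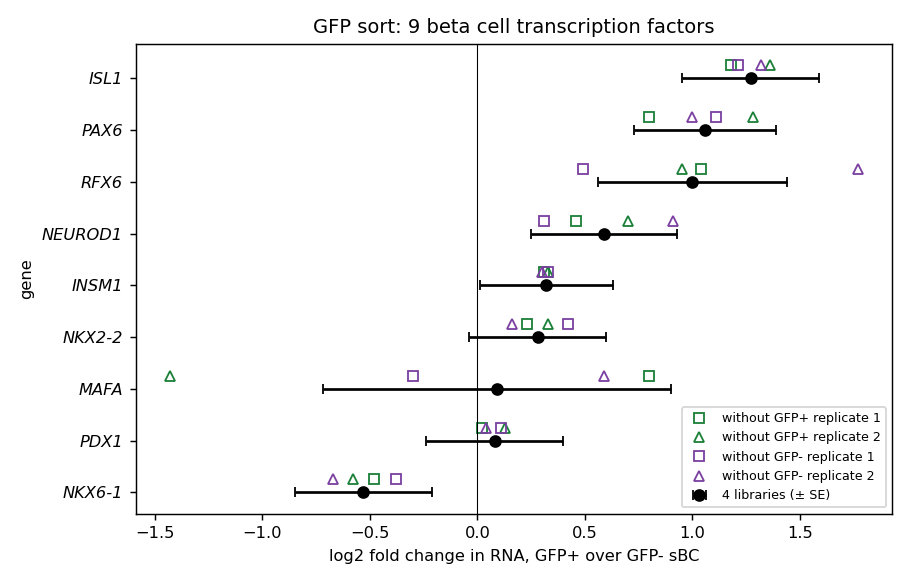
Log2 fold change in RNA of GFP+ over GFP- sBC for the 9 factors. Black points and bars are the fit of 4 libraries with its SE, and open symbols leave out 1 library each. ISL1 keeps a value between 1.18 and 1.36 in every fit, while RFX6 moves from 0.49 to 1.77 with the GFP- library left out and MAFA changes sign.

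Cell types other than beta cells also differed between the sorted fractions. In the sort 2.35% of all genes were called lower and 0.0808% higher. Of 10 duct and exocrine genes 8 could be tested, 3 were lower in GFP+ sBC, among them CFTR (-6.16 ± 0.51, adjusted p = 0.00311) and SPP1 (-5.37 ± 0.54, adjusted p = 0.00482), and none was higher. The list summed to 189 and 308 CPM in GFP+ and to 1390 and 1320 CPM in GFP- libraries, and the acinar genes CTRB1 and PNLIP were at 0 in both. Mesenchyme, endothelium and immune genes summed to 30.3 and 42.7 against 300 and 128 CPM, and cycling genes to 11.4 and 7.99 against 159 and 60.3 CPM. Delta, PP and epsilon cell genes summed to 1010 and 1070 against 221 and 230 CPM, most of it SST, the delta cell hormone, at 782 and 926 against 133 and 117 CPM (2.77 ± 0.34, adjusted p = 0.0087). SST was the 1 gene of these 6 called higher, none was lower and the list's median was 0.96. GHRL, the epsilon cell hormone, stood at 2.78 and 3.33 against 7.09 and 4.49 CPM (-0.93 ± 0.47, adjusted p = 0.515). Enterochromaffin-like genes summed to 1260 and 1820 against 823 and 1940 CPM. The part of this makeup in the differences of the 9 factors was not tested.

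In footprints, 8 factors were highest in GFP+ sBC, 6 of them were at or near 0 in hPSC and DE, and MAFA was low throughout. RFX6 had no IP-Ribo footprint in hPSC, 0.118 and 0.234 CPM in DE and 286 and 277 CPM in GFP+ sBC. NEUROD1 had none in hPSC or DE and 216 and 191 CPM in GFP+ sBC. These 2 libraries held 1498 and 1403 footprint counts of NEUROD1, which put GFP+ sBC at least 2600-fold above hPSC (adjusted p = 2.44e-05). RFX6 was at least 3600-fold above hPSC (adjusted p = 1.56e-05).

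PDX1 reached 31 and 39.1 CPM of IP-Ribo footprints in GFP+ sBC, NKX6-1 23.1 and 26.5 CPM, INSM1 23.1 and 24.5 CPM and NKX2-2 10.5 and 10.3 CPM. In hPSC these genes had 0 to 3 footprint counts over both libraries, and in DE likewise. The ratios to hPSC have wide counting intervals: 451 for PDX1 (153 to 2190), 955 for NKX6-1 (170 to 37800) and 457 for INSM1 (126 to 3790). NKX2-2 was at least 134-fold higher.

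PAX6 and ISL1 had footprints at all 3 stages. PAX6 had 0.791 and 0.434 CPM in hPSC, 6.59 and 10.1 CPM in DE and 48.7 and 47.1 CPM in GFP+ sBC of IP-Ribo, and in Ribo 0.571 and 0.399 CPM in hPSC and 8.58 and 9.26 CPM in DE. Stages did not overlap in either assay. DE over hPSC was 3.78 ± 0.38 in IP-Ribo (adjusted p = 0.00129) and 4.2 ± 0.29 in Ribo (adjusted p = 0.00141), the latter 3.94 without hPSC Ribo replicate 2 (adjusted p = 0.056). ISL1 had 0.396 and 0.289 CPM in hPSC, 117 and 110 CPM in GFP+ sBC, and in DE 17.7 CPM in replicate 1 against 1.6 CPM in replicate 2, from 150 and 41 counts. Its DE level therefore rests on 1 library. DE over hPSC was 4.72 ± 1.4 (adjusted p = 0.0812), 2.23 without DE replicate 1 (adjusted p = 0.0144) and 5.64 without DE replicate 2 (adjusted p = 0.000877). In Ribo, ISL1 was at 0.19 and 0.166 CPM in hPSC and 4.48 and 1.49 CPM in DE, a log2 fold change of 4.01 ± 0.71 (adjusted p = 0.013) that lost its call without hPSC replicate 1 (4.09, adjusted p = 0.127) or 2 (3.91, adjusted p = 0.145).

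**Figure D3:**
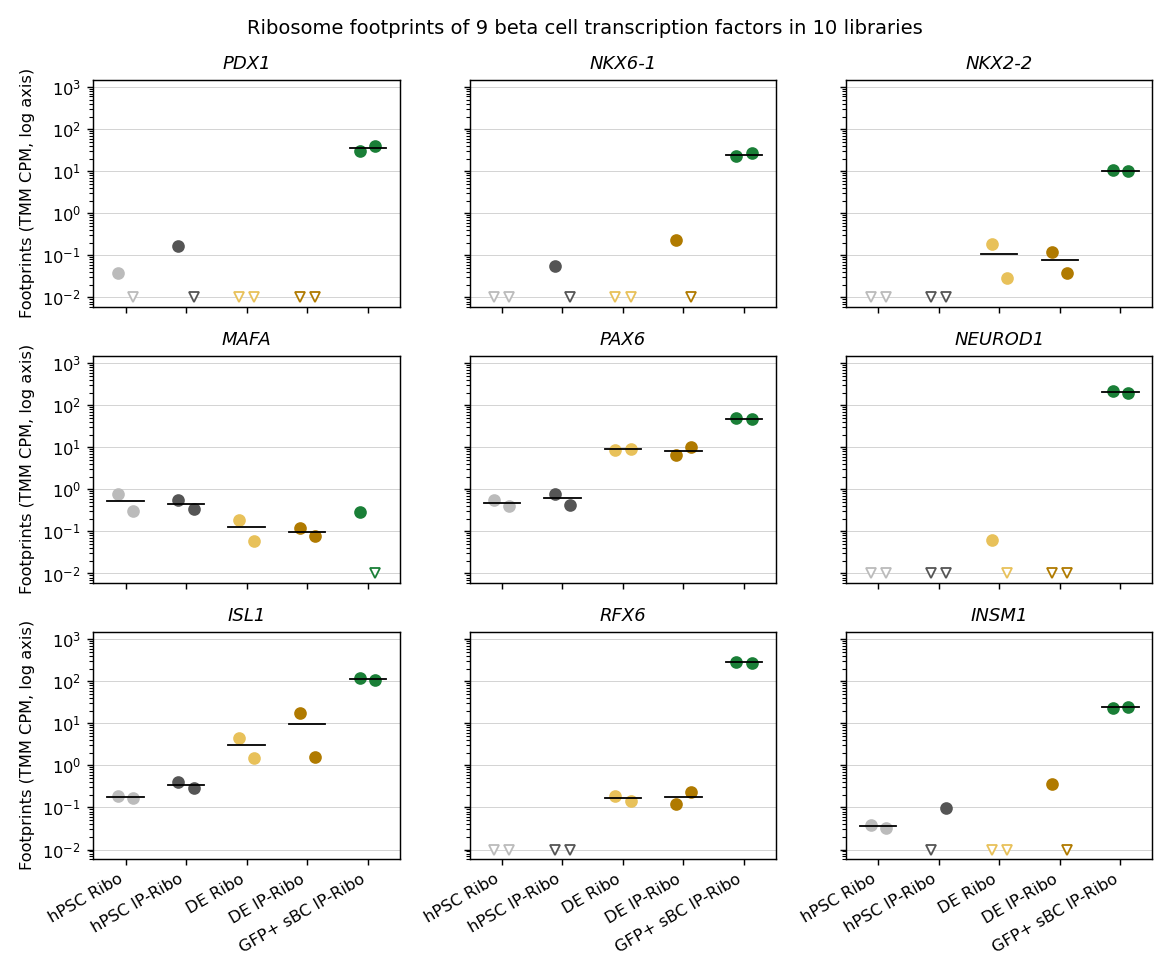
Footprint level of each factor in the 10 footprint libraries (TMM CPM within Ribo or IP-Ribo, log axis). Points are libraries, lines are means of 2 libraries where both are above 0, and open triangles mark libraries listed at 0. GFP+ sBC is the highest group in every panel but MAFA, and the ISL1 panel shows the gap between the DE IP-Ribo libraries, 17.7 and 1.6 CPM.

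MAFA footprints numbered 20 and 9 in hPSC Ribo, 10 and 7 in hPSC IP-Ribo, and 2 and 0 in GFP+ sBC IP-Ribo. It was too low to be tested in IP-Ribo, and translation in sBC was not detectable beyond these 2 counts. In DE against hPSC IP-Ribo, 8 members passed the filter on low counts. NEUROD1 had 0 counts in both stages, and PDX1, NKX6-1, NKX2-2 and INSM1 had 3 counts or fewer in each, which leaves 3 members with more. Of these PAX6 and RFX6 (7 counts against 0, adjusted p = 0.0165) were called higher, ISL1 was not called and none was lower, beside 9.78% and 12.5% of all genes. GFP+ sBC over hPSC was called higher for the 8 members that passed the filter, beside 30.4% higher and 28.5% lower. RFX6, NEUROD1, PDX1, NKX6-1, NKX2-2 and INSM1, with 0 to 3 counts in hPSC, passed it through the GFP+ sBC libraries, so this number supports nothing about the members. ISL1 (8.35 ± 1.5, adjusted p = 0.00867) lost its call without hPSC replicate 1 (8.53, adjusted p = 0.0844) or 2 (8.1, adjusted p = 0.0875) and with no filter on low counts (8.21, adjusted p = 0.0586). Over DE 7 of these 8 were called higher and none lower, beside 27.8% higher and 24.8% lower, with the same limit for those at 0 to 3 counts in DE. ISL1, at 3.62 ± 1.14 (adjusted p = 0.0532), missed the threshold in that comparison, and passed it without DE replicate 1 (6.08, adjusted p = 0.000194) or 2 (2.67, adjusted p = 0.000887). In Ribo the 2 members tested, PAX6 and ISL1, rose from hPSC to DE, beside 17.2% of all genes that rose and 16.9% that fell.

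Within GFP+ sBC the factors differed widely in footprints per RNA. Coding and transcript lengths were not used here, and their part in differences of this ratio between genes or lists was not tested. The ratio of IP-Ribo CPM to RNA CPM was 0.893 for RFX6 (0.85 to 0.939 over pairs of libraries), 0.595 for ISL1 (0.544 to 0.652), 0.416 for NEUROD1 (0.361 to 0.481) and 0.384 for PDX1 (0.327 to 0.445). It was lower for NKX6-1 at 0.223 (0.201 to 0.248), PAX6 at 0.139 (0.117 to 0.169), NKX2-2 at 0.077 (0.0738 to 0.0803) and INSM1 at 0.0549 (0.0529 to 0.0568). Neighbours in this order did not overlap, save NEUROD1 and PDX1. Among 12866 protein-coding genes the median ratio was 0.503, with quartiles of 0.254 and 0.941. RFX6 lay at percentile 73.3 and INSM1 at percentile 2.2, on 22828 and 31342 RNA counts.

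**Figure D4:**
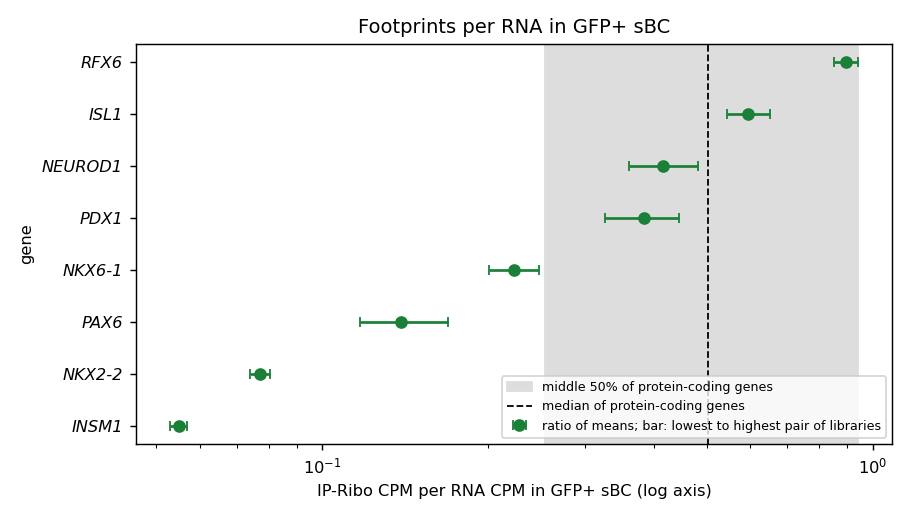
IP-Ribo CPM per RNA CPM in GFP+ sBC (log axis) for the 8 factors with enough footprint counts. Points are ratios of group means, bars run from the lowest to the highest pair of libraries, and the grey band holds the middle 50% of protein-coding genes. RFX6, ISL1, NEUROD1 and PDX1 lie in the band and NKX6-1, PAX6, NKX2-2 and INSM1 to its left.

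Tested as IP-Ribo against RNA in one model of 12 libraries, 4 of 9 members were lower in footprints than in RNA and 1 was higher, beside 28.8% and 28% of all genes. This model scaled both assays together, so higher and lower are relative to the typical gene, here and in the lists below. The ratios above were scaled within each assay and had a median of 0.503. A gene such as RFX6, at a ratio of 0.893, can therefore be higher in this test. The members' median was -1.22 and that of all genes -0.1. The lower ones were INSM1 (-3.25 ± 0.41, adjusted p = 9.9e-05), NKX2-2 (-2.76 ± 0.19, adjusted p = 2.66e-06), PAX6 (-1.91 ± 0.27, adjusted p = 0.000154) and NKX6-1 (-1.22 ± 0.28, adjusted p = 0.00366). RFX6 was higher (0.77 ± 0.2, adjusted p = 0.00922). That call was lost without GFP+ RNA replicate 1 (0.71), GFP+ IP-Ribo replicate 1 (0.6) or GFP+ IP-Ribo replicate 2 (0.6). The median over all genes in these fits was 0, -0.45 and -0.39, in that order. ISL1 (0.19 ± 0.72, adjusted p = 0.854), NEUROD1 (-0.33 ± 0.2, adjusted p = 0.178), PDX1 (-0.44 ± 0.27, adjusted p = 0.19) and MAFA (-1.61 ± 1.19, adjusted p = 0.265) did not pass. PDX1 passed at -0.62 when any 1 hPSC or DE IP-Ribo library was left out. NEUROD1 passed when either DE IP-Ribo library was left out (-0.51 and -0.5). In these fits the median over all genes was -0.27 or -0.28, against -0.1 with all 12 libraries. PDX1 and NEUROD1 thus moved about as far as the typical gene.

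The RNA and the IP-Ribo libraries of GFP+ sBC did not hold the same mixture of markers. All 8 duct and exocrine genes tested, of 10, were higher in footprints than in RNA, beside 28% of all genes, with a median of 3.69. The list summed to 1110 and 1260 CPM in IP-Ribo against 189 and 308 CPM in RNA. CFTR, for example, stood at 255 and 392 CPM against 8.54 and 8.79 CPM, and its level in GFP- RNA was 399 and 829 CPM. Alpha cell genes summed to 65200 and 38600 CPM against 38000 and 25200 CPM. Among the GFP+ sBC the labels name the lentivirus for the IP-Ribo libraries alone, and 54.6% and 62.8% of their counts came from nuclear protein-coding genes, against 84.8% and 86.3% in RNA. The part of these differences in the footprint to RNA ratios of the 9 factors was not tested.

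The change of footprints relative to RNA between stages could be read for PAX6. Its ratio of IP-Ribo to RNA CPM was 0.476 in hPSC (0.271 to 0.815 over pairs of libraries), 0.253 in DE (0.196 to 0.314) and 0.139 in GFP+ sBC (0.117 to 0.169). The interaction of stage and assay was -2.0 ± 0.51 for GFP+ sBC against hPSC (adjusted p = 0.0243) and -1.44 ± 0.38 against DE (adjusted p = 0.0285). It scales both assays together, so it need not equal the change of these ratios. The labels give RPL22-FLAG as genotype in both assays of hPSC and DE, and by lentivirus in GFP+ IP-Ribo alone. Effects of stage and of this difference cannot be told apart. The hPSC ratio rests on 23 footprint counts, and the call against hPSC was lost without hPSC RNA replicate 2 (-1.68, adjusted p = 0.0705), GFP+ RNA replicate 1 (-1.73, adjusted p = 0.0727) or hPSC IP-Ribo replicate 1 (-1.81, adjusted p = 0.142). Against DE it was lost on leaving out any of 6 libraries, with values from -1.47 to -0.96: either DE RNA library, GFP+ RNA replicate 1, DE IP-Ribo replicate 2 or either GFP+ IP-Ribo library. The fitted value of PDX1 against hPSC (-6.05, adjusted p = 0.0321) is no measured change, since hPSC held 0 RNA counts and 3 footprint counts from 1 library and the ratio there is undefined. PAX6 and ISL1 alone had more than 3 counts in both assays of hPSC and GFP+ sBC. PAX6 was therefore the 1 measured call against either stage, beside 3.98% of all genes called lower and 11% called higher against hPSC, and 5.32% and 8.84% against DE. With 1 library left out the number of all genes called lower against hPSC ran from 289 to 2611, and against DE from 339 to 1458. ISL1 against DE was -2.34 ± 1.08 (adjusted p = 0.206), -3.26 without DE IP-Ribo replicate 2 (adjusted p = 0.000165) and 0.14 without DE IP-Ribo replicate 1.

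The 8 factors other than MAFA followed each other over the 8 RNA libraries, with Pearson correlations of log2(CPM + 1) from 0.817 to 0.998, while MAFA had correlations of -0.818 to -0.371 with them. These values describe 8 points that share 4 groups of 2 libraries. Among 12117 protein-coding genes that reached 10 CPM, those most like each factor were KCNH6 and AGT for PDX1, KCNK3 and LIPC for NKX6-1, PIGO and USH1C for NKX2-2, PRLHR and SCGN for NEUROD1, SYT7 and SGSM1 for INSM1, CYSLTR2 and CEACAM1 for RFX6, RGS4 and ALCAM for ISL1, and INVS and DNALI1 for PAX6 (r of 0.997 to 0.9996). For MAFA they were GNG3 (r = 0.991) and GAP43 (r = 0.99). The number of genes above 0.95 was 48 for MAFA, 379 for PAX6 and 928 to 1106 for the other 7.

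Transcripts named for the opposite strand or the divergent start of a member were few. ISL1-DT, the divergent transcript of ISL1, was at 24.7 and 26.3 CPM in GFP+, 9.16 and 14.8 CPM in GFP- sBC, 0.103 and 0.113 CPM in hPSC and 0.432 and 0.196 CPM in DE. It therefore had the order of ISL1 across sBC and hPSC, and its IP-Ribo level in GFP+ sBC was 0.577 and 0.272 CPM. Whether the counting used strand is not given in the sources used here, so reads of overlapping genes on opposite strands cannot be told apart.

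Around the 9 factors, known target genes of these factors in beta cells were followed as a list. All 17 rose from hPSC to GFP+ sBC in both RNA and IP-Ribo footprints, beside 30.4% of all genes in each. The 4 at 0 in hPSC RNA, and those with at most 3 counts in hPSC IP-Ribo, passed the filter on low counts through sBC libraries. Their rise therefore supports nothing about the list. The median in RNA was 8.15, or 7.36 with the 4 genes at 0 in hPSC set to their bounds. In the sort 1 of 17 was higher in GFP+ sBC and none lower, beside 0.0808% higher and 2.35% lower of all genes. It was ERO1B, an oxidase of proinsulin folding (2.16 ± 0.39, adjusted p = 0.0348). INS stood at 1.78 ± 0.41 (adjusted p = 0.0749). In footprints against RNA 5 of the 17 were higher and 6 lower, beside 28% and 28.8% of all genes, with a median of 0.09 against -0.1 over all genes, which is near the background. SCG5, a chaperone of prohormone processing, stood at 1.97 ± 0.21 (adjusted p = 2.68e-05), and KCNJ11, the pore of the KATP channel, at -2.03 ± 0.2 (adjusted p = 1.46e-05). The zinc transporter SLC30A8 stood at -1.87 ± 0.25 (adjusted p = 0.000111).

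Of 15 partner proteins, with which the factors form complexes, 3 rose and 12 fell from hPSC to GFP+ sBC, with a median of -1.17. Over all genes 30.4% rose and 30.9% fell in this comparison, with a median of 0.04. MEIS1 and MEIS2, homeodomain cofactors, rose by 6.34 ± 0.43 and 3.58 ± 0.39 (log2; adjusted p = 2.32e-05 and 0.000183). TCF4, an E protein that pairs with helix-loop-helix factors such as NEUROD1, fell by 3.31 ± 0.19 on the log2 scale (adjusted p = 1.24e-05). In the sort none of the 15 was called, with EP300 at 0.19 ± 0.34 (adjusted p = 0.85). Of all genes 0.0808% were called higher and 2.35% lower there.

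Among 10 other islet cell fate factors 9 rose and 1 fell from hPSC to GFP+ sBC, with a median of 5.13, beside the same 30.4% and 30.9% of all genes. LMX1A, a LIM homeodomain factor, stood at 9.42 ± 0.43 (adjusted p = 7.39e-06). In the sort 0 of these 10 and 0 of 17 other beta cell and islet regulators were called. The shares over all genes were 0.0808% higher and 2.35% lower. Of the 17 regulators 13 rose and 3 fell from hPSC to GFP+ sBC, with a median of 4.13, led by MNX1 (9.03 ± 0.36, adjusted p = 6.13e-06), which represses non-beta fates.

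Of 12 endocrine commitment factors 6 rose and 4 fell from hPSC to GFP+ sBC, with a median of 1.36, beside 30.4% and 30.9% of all genes. NEUROG3, the factor that starts endocrine differentiation, was at 10.6 and 17.3 CPM in GFP+ and 21.9 and 28.3 CPM in GFP- sBC, without overlap, and its sort difference was -0.85 ± 0.4 (adjusted p = 0.467). Of 13 pancreatic progenitor factors 5 were lower in GFP+ than in GFP- sBC and none higher, with a median of -1.44. Over all genes 2.35% were called lower and 0.0808% higher in the sort. Among the 5 were SOX9, which maintains progenitors and duct cells (-4.35 ± 0.39, adjusted p = 0.0035), and ONECUT1 (-4.15 ± 0.53, adjusted p = 0.0103). PDX1 and NKX6-1, which are made in progenitors as well, had sort differences of 0.08 and -0.53. Summed, the progenitor list overlapped between the fractions, at 1070 and 900 CPM in GFP+ and 952 and 1060 CPM in GFP- RNA. The duct and exocrine sums given above did not overlap.

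Footprints against RNA in GFP+ sBC were also counted in the lists of related transcription factors. Among these, 7 of 10 islet cell fate factors, 13 of 17 regulators, 6 of 10 tested commitment factors, 8 of 15 partners and 5 of 11 tested pancreatic progenitor factors were lower in footprints than in RNA, and 0, 1, 0, 1 and 2 were higher, beside 28.8% lower and 28% higher of all genes. Their medians ran from -1.56 to -0.86, beside -0.1 for all genes and -1.22 for the 9 members. LMX1B stood at -2.88 ± 0.21 (adjusted p = 1.86e-06) and MNX1 at -2.86 ± 0.44 (adjusted p = 0.000346). Whether the lists differ from other genes was not tested. The paralogues of the members were nearer to all genes, with 2 higher and 9 lower of 23 and a median of -0.42.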

How the data were processed

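What the authors deposited are expected counts, estimates that need not be whole, for 57808 genes in 18 libraries, with no further columns. Per the submitters' processing notes, Salmon, DESeq2, UMI-tools, cutadapt and Bowtie were used on build GRCh38. Their versions and roles, the annotation release and the strand setting are not given in the sources used here. Libraries were grouped by their labels into 9 groups of 2.

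Counts were rounded. Tests used the robust quasi-likelihood F test of edgeR 4.0.16 under R 4.3.3, after filterByExpr and TMM, with Benjamini-Hochberg adjustment over all genes tested and a threshold of 0.05. The sort, DE against hPSC RNA and Ribo fits held 4 libraries each, the other RNA fits 8, IP-Ribo 6 and footprints against RNA 12. The scripts were tested on simulated data. Standard errors come from the fits, and adjusted p-values without another tool's name are edgeR's. Folds against a group at 0 use a floor of 3 counts over its libraries. Intervals of count ratios are exact at 95%. Correlations used log2(CPM + 1).

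The members, the lists and the tests were chosen with earlier results of these data known. All 9 members are named. From other lists, text names come from the 3 largest changes past the threshold and the 2 highest genes not past it. Some genes these rules select are not reported here. Further values of NEUROG3 and CFTR were chosen after they were seen.

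Alternatives were RLE size factors, no filter, a filter of 1 CPM and 10 counts in 2 libraries, DESeq2 1.42.0, a replicate block, only protein-coding nuclear genes, a minimum of 10 counts throughout, other sets of libraries in the fit, and each library left out. Replicate numbers were not taken as pairs: the correlation of replicate differences between groups ran from -0.24 to 0.17.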

Additional observations from a re-analysis of the deposited data

Results flagged for a closer look

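For PAX6 the difference between IP-Ribo and RNA changed with the stage, by the interaction of stage and assay in edgeR's fit of 12 libraries. PAX6 had fewer footprints relative to RNA in GFP+ sBC than in hPSC (-2.0 on the log2 scale) and than in DE (-1.44). Stage cannot be told apart here from the source of RPL22-FLAG, genotype in hPSC and DE and lentivirus in GFP+ IP-Ribo. The call against hPSC was lost on leaving out any of 3 single libraries, and that against DE on leaving out any of 6. The same test returned -6.05 for PDX1 against hPSC, which is no measured change: hPSC held 0 RNA counts and 3 footprint counts from 1 library, so its ratio there is undefined.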

How the results depend on the processing

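Of 792 values recomputed for 56 results on single genes, 742 kept their direction and side of the threshold, 18 lost the call, 25 gained one and 7 changed sign. The number of members called higher in the sort, 0, was 1 with no filter, with DESeq2 and with all 8 RNA libraries in the fit, and 0 to 4 with each library left out, 4 without GFP- replicate 2. The rise without GFP- replicate 2 was not limited to the members. Calls over all genes rose there in both directions, as given above for the sort. Leaving out a library of a pair leaves a lone library, assumed to vary like the other groups in the fit, which in the sort is 1 pair. The number called lower, 0, was 0 to 1. From hPSC to DE in RNA the stricter filter called 2 higher and 1 lower, since it tests fewer members. With each library left out, 1 to 3 members were higher in IP-Ribo and 0 to 2 in Ribo from hPSC to DE, 0 to 1 were higher in footprints than in RNA within GFP+ sBC, and the change of that ratio called 0 to 2 lower against hPSC and 0 to 2 against DE. DESeq2 called 3 lower against DE, of which PAX6 alone had more than 3 counts in both assays of DE and GFP+ sBC. No member has 10 counts in all 12 libraries, so that filter called 0 in each of these comparisons.

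Counts over all genes moved as well. In the sort 16 were higher and 465 lower, against 116 and 1480 with no filter, 106 and 1157 with DESeq2, 121 and 1142 with all 8 RNA libraries and 96 and 1162 with the block. DE against hPSC in RNA had 7992 and 7599, and 3350 and 3211 with all 8 RNA libraries. In Ribo 2661 and 2615 fell to 49 and 24 without hPSC replicate 2, and 1710 were lower with the block. In IP-Ribo of the same stages 1566 and 2007 fell to 549 and 548 without hPSC replicate 1. The change of footprints against RNA called 2443 higher and 884 lower against hPSC (2222 lower with DESeq2, 289 without hPSC RNA replicate 1 and 2611 without DE IP-Ribo replicate 1, and 1385 to 2408 higher with each library left out) and 1963 higher and 1181 lower against DE (2981 higher with DESeq2, 763 lower with no filter, 653 lower over protein-coding genes, 1104 to 2134 higher and 339 to 1458 lower with each library left out).

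The sign changed for MAFA in the sort (-1.43 to 0.8 with a library left out) and over DE (-0.45 to 1.8), and for ISL1 in footprints against RNA within GFP+ sBC (-0.02 with no filter, -0.0 to 0.26 with a library left out) and in its change against DE (-3.26 to 0.14). The cause was not tested. With the replicate number as a block, MAFA in the sort was -0.19, ISL1 in IP-Ribo of GFP+ sBC over DE passed (4.23, adjusted p = 0.0426), and no other call of a member changed.  With the DE numbers exchanged, tried after seeing the data since Ribo replicates of the stages differed in opposite ways, PAX6 and ISL1 were both higher in Ribo, as without a block.

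Low counts limit MAFA and, before sBC, most footprint values. In hPSC and DE 6 of the 9 factors had at most 7 footprint counts over a stage's IP-Ribo libraries. These libraries held 20.57 and 23.11 M counts in hPSC and 6.61 and 19.86 M in DE. Those of GFP+ sBC held 8.73 and 7.59 M. The part of depth was not tested.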
